A study of Homo sapiens with 5 samples.

Results

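SMAD2 binding was examined at the loci of 8 luminal transcription factor genes: FOXA1, GRHL2, SPDEF, ELF3, TFAP2A, TFAP2C, XBP1 and RARA. A summit, the single position listed for a stretch of enrichment, belonged to a locus when it lay within 30 kb of the gene's span on the hg19 build, so the members were chosen by coordinates and not by measured values. The loci held 160 of 62960 and 160 of 65207 summits in the libraries from cells given palbociclib and activin A, against 147 of 51535 and 157 of 54243 in the libraries given activin A alone. Chained at gaps of up to 200 bp across the 4 lists, these summits formed 334 of the 115321 regions of the genome.

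All libraries came from T47D, an established human breast cancer cell line of the luminal, estrogen receptor-positive type, and were made by chromatin immunoprecipitation with an antibody against SMAD2. In the palbociclib group (2 libraries) palbociclib was given at 1 µM for 24 h together with activin A at 50 ng/ml for 1.5 h; the activin group (2 libraries) received the same activin A without palbociclib. Both groups therefore carried activin A, and SMAD2 binding without the ligand was not analysed here. The T47D input library, for which no treatment is listed, was not analysed either. Nothing in the labels ties the replicates to separate cultures, so their spread may be technical.

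Activin A binds receptors that phosphorylate SMAD2, which then enters the nucleus with SMAD4 and associates with DNA largely through SMAD4 and other bound transcription factors. Palbociclib is an inhibitor of CDK4 and CDK6, kinases that promote the step from G1 into S phase. Luminal breast epithelial cells are defined by a small set of transcription factors, among them FOXA1, GRHL2, SPDEF and the AP-2 proteins, many of which act on each other's genes and work together with the estrogen receptor.

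Promoters of 6 of the 8 genes were taken from the RefSeq promoter table of GRCh38.p14, which lists 10 promoters for them. Each promoter runs from 250 bases before to 50 bases after the annotated start. The 6 promoters printed here are those at, or named beside, the SMAD2 summits described for these genes; their coordinates belong to GRCh38.p14 and not to hg19. Capitals mark the short SMAD motif CAGAC and the GC-rich SMAD motif GGCGC on either strand, and each sequence reads 5′ to 3′ along the gene.
FOXA1, chr14:37595200-37595499, minus strand: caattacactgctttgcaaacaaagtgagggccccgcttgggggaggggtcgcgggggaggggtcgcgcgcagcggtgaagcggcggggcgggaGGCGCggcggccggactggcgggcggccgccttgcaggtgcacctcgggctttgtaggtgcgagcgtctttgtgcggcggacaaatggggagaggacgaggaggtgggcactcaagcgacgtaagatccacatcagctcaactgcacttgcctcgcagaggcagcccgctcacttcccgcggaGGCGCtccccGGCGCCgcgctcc
ELF3, chr1:202010337-202010636, plus strand: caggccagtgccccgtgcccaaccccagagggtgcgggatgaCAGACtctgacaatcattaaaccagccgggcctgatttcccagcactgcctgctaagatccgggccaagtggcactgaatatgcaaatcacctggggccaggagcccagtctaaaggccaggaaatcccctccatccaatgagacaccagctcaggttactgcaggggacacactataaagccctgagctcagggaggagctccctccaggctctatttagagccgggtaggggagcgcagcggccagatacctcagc
SPDEF, chr6:34556280-34556579, minus strand: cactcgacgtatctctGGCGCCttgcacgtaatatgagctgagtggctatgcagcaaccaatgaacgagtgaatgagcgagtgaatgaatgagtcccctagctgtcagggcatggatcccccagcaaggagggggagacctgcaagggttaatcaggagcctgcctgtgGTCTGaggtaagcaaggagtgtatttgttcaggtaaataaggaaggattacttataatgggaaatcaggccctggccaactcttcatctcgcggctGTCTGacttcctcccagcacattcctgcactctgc
TFAP2A, first promoter, chr6:10419610-10419909, minus strand: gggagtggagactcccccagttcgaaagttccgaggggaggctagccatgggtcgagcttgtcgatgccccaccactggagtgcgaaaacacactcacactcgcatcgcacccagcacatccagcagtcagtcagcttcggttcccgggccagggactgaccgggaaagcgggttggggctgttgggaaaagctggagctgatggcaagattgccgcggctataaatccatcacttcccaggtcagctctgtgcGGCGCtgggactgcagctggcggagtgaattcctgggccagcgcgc
XBP1, first promoter, chr22:28800520-28800819, minus strand: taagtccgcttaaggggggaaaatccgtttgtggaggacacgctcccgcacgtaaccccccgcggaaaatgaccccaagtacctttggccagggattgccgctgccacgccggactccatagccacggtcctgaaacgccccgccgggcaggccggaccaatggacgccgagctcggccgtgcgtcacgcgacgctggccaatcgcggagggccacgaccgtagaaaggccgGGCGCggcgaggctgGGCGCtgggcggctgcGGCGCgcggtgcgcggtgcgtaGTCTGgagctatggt
RARA, second promoter, chr17:40317995-40318294, plus strand: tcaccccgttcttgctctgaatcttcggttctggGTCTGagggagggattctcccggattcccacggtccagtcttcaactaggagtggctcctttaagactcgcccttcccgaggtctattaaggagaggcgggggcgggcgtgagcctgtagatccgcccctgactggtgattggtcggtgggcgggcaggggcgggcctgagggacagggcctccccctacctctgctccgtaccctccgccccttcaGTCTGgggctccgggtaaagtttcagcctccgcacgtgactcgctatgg

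The short motif CAGAC was present in 7 of the 10 promoters, against 45.3% of all 35116 promoters in the table, and GGCGC was also present in 7 of the 10, against 48.6%. Both strands were searched and overlapping matches were counted. The ELF3 promoter held 1 match to CAGAC and 0 to GGCGC, whereas the FOXA1 promoter held 0 and 4. SPDEF had 2 of each, the first TFAP2A promoter 0 and 1, the first XBP1 promoter 1 and 3, and the second RARA promoter 2 and 0. The longer form CAGACA, which contains CAGAC, occurred in 2 of the 10 promoters, against 16.9% of all. The AP-2 palindrome, which is GCC and GGC separated by any 3 bases, occurred in 2 of 10 (23.2% of all), the nuclear receptor motif AGGTCA in 2 of 10 (13.8% of all) and the E-box CACGTG in 1 of 10 (7.26% of all). The FOXA motif TGTTTAC (3.42% of all promoters), the GATA motif AGATAA (10.3%), the GRHL motif AACCGGT (0.772%), the AP-1 motif TGANTCA (7.71%) and the ETS motif CCGGAA (17.2%) had 0 matches in the 10 promoters. A match in these windows is a description of the letters only. Promoters of GRHL2 and TFAP2C were not among the 10, so the motif counts do not cover these genes. Their absence from the set does not mean that RefSeq lists no promoter for them.

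All 8 loci were rich in SMAD2 summits. Their mean density over the 4 libraries lay between 12.3 summits per 100 kb at GRHL2, whose span is the longest, and 29.8 at RARA. Windows of 100 kb across the genome that held any summit (18476 windows) had a median of 1.5 and a 95th percentile of 12 summits. The loci lay above 95.3% of the windows at GRHL2 and above 99.7% at RARA. The windows follow a fixed grid, whereas the loci with their flanks are placed around genes and are 67 to 238 kb long. At the edge of the 30-kb rule, the outermost summit inside lay between 10.2 and 29.9 kb from the span, and the first summit outside between 30.8 and 79.2 kb. The loci also reach into neighbouring genes: TTC6 beside FOXA1, PACSIN1 beside SPDEF, NCALD beside GRHL2, CCDC117 beside XBP1, RNPEP beside ELF3, and CDC6, GJD3 and WIPF2 beside RARA lie within 30 kb in GRCh38, so a summit in a flank cannot be given to the member gene from its position.

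Palbociclib went with more summits at FOXA1 and TFAP2C and with fewer at SPDEF and TFAP2A, while the counts at GRHL2, XBP1, ELF3 and RARA overlapped between the groups. FOXA1 had 23 and 24 summits in the palbociclib libraries, against 14 and 14 in the activin libraries, or 1.68-fold as many (log2 0.75). At TFAP2C the palbociclib libraries had 15 and 16 summits and the activin libraries 7 and 7, a ratio of 2.21 (log2 1.15). SPDEF had 10 and 12 summits with palbociclib, against 17 and 13 with activin alone, a ratio of 0.733 (log2 -0.45). TFAP2A had 17 and 16 with palbociclib, against 19 and 29 with activin alone, a ratio of 0.688 (log2 -0.54). In each of these 4 genes the counts of the groups did not overlap, and the exact two-sided permutation test gave p = 0.333, which is the smallest that 2 libraries against 2 allow, so no comparison here can pass 0.05.

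The raw counts of the remaining loci overlapped between the groups. GRHL2 had 28 and 30 summits in the palbociclib libraries and 28 and 31 in the activin libraries (log2 -0.02). XBP1 had 20 and 16, against 18 and 16 (log2 0.08), and ELF3 13 and 15, against 13 and 13 (log2 0.11). RARA had 34 and 31 with palbociclib and 31 and 34 with activin alone, the same mean. As a share of each list, which allows for the longer palbociclib lists, XBP1 alone of these 4 overlapped. GRHL2 took 0.0445% and 0.0460% of the palbociclib lists, against 0.0543% and 0.0572% of the activin lists. ELF3 took 0.0206% and 0.0230%, against 0.0252% and 0.0240%, and RARA 0.0540% and 0.0475%, against 0.0602% and 0.0627%. All 3 shares were lower with palbociclib without overlap (exact permutation p = 0.333 for each).

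**Figure D1:**
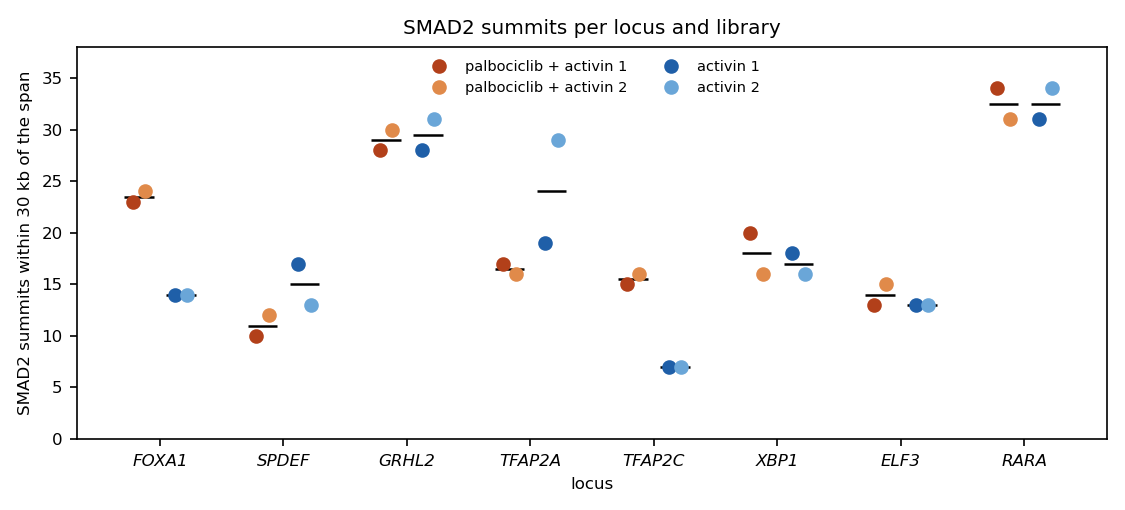
Number of SMAD2 summits (vertical axis) at each of the 8 loci, with each library as a point and the group mean as a short line, the palbociclib libraries to the left of the activin libraries. FOXA1 (23 and 24 against 14 and 14) and TFAP2C (15 and 16 against 7 and 7) lie higher with palbociclib, and SPDEF and TFAP2A lie lower.

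Thus 2 of the 8 loci had more summits in both palbociclib libraries than in both activin libraries, where 17.7% of all windows with a summit and 42.7% of the windows with a mean of at least 10 summits did. In the other direction, 2 of the 8 had fewer, where 3.18% of all windows and 4.7% of the summit-rich windows did. By share of the list, 2 of the 8 (FOXA1 and TFAP2C) were higher in both palbociclib libraries, where 14.2% of all windows and 19.9% of the summit-rich windows were. By the same measure 5 of the 8 (SPDEF, GRHL2, TFAP2A, ELF3 and RARA) were lower in both, where 22.8% of all windows and 25.2% of the summit-rich windows were. The palbociclib lists were 1.21-fold as long as the activin lists, and the median log2 ratio of the summit-rich windows was 0.25, with 0.78 at the 95th percentile and -0.25 at the 5th. Against these windows, TFAP2C (1.15) lay above the 95th percentile, FOXA1 (0.75) below it, and SPDEF (-0.45) and TFAP2A (-0.54) below the 5th. The SPDEF and TFAP2A values rested on single activin libraries for much of their size: without activin library 1 the SPDEF log2 ratio was -0.24, and without activin library 2 that of TFAP2A was -0.20.

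Taken over all 8 loci the palbociclib libraries held slightly more summits but a smaller share of their lists. The total was 160 and 160 with palbociclib, against 147 and 157 with activin alone, a ratio of 1.05 (log2 0.07; exact permutation p = 0.333). As a share of each list this was 0.254% and 0.245% with palbociclib, against 0.285% and 0.289% with activin alone, a difference of -0.0376 percentage points (exact permutation p = 0.333). The groups did not overlap in either measure. The direction of the total depended on the setting: with every list held to its highest 51535 summits the log2 ratio was -0.24, and with flanks of 10 kb it was -0.064.

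Each locus had at least 1 region that all 4 libraries placed in the strongest 10% of their lists, and at 5 of the 8 loci (ELF3, GRHL2, SPDEF, TFAP2A and TFAP2C) the best shared region lay within 1 kb of the gene's 5′ end. These 5 genes also had a summit from the strongest 10% of the list within 2 kb of the 5′ end in every library. Summits were ranked within each list by the authors' score, read as the −log10 q of the peak, and the rank is given because scores are not comparable between lists; since the lists differ in length, a difference in rank between groups is not read as a change in binding. The 5′ ends are those of the spans and are known only to the nearest kilobase. A distance under 1 kb therefore does not place a summit inside or upstream of a gene. Exon, intron and untranslated positions were not assigned.

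**Figure D2:**
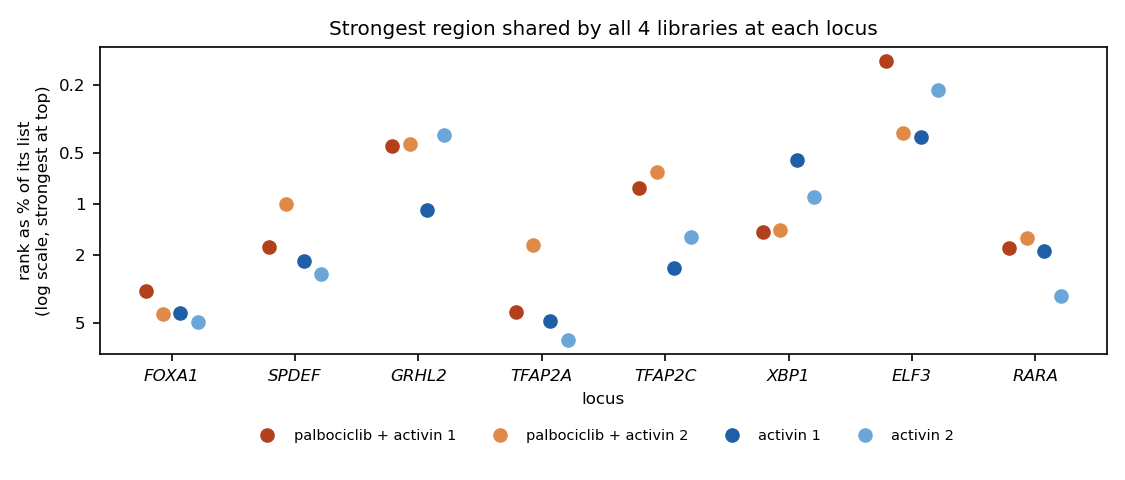
Rank of the best shared region of each locus as a percentage of the library's list (vertical axis, log scale, strongest at the top), with the palbociclib libraries to the left of the activin libraries. ELF3 lies highest in all 4 lists (0.145% to 0.404%), FOXA1 and TFAP2A lie lowest in the activin lists, and GRHL2 lies within the strongest 1.09% of every list.

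ELF3, an ETS-family factor of epithelial cells, had the highest-ranked summit of the 8 loci. It lay at chr1:201979736-201979782, about 0.76 kb inside the rounded span. It ranked 91 and 249 in the palbociclib lists and 208 and 116 in the activin lists. All 4 libraries thus placed it in the strongest 0.404% of their summits, and the 4 positions were spread over 46 bp. A second shared region lay at chr1:201987955-201987976, 8.97 kb downstream of the 5′ end, where the ranks were 7617 and 10595 with palbociclib and 2739 and 7479 with activin alone. ELF3 was the locus with the smallest number of group-specific regions, 0 for either group.

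SPDEF, an ETS-family factor of secretory and luminal epithelium, had 2 strong shared regions. At chr6:34524075-34524146, 0.89 kb inside the rounded span, the summits ranked 1138 and 654 in the palbociclib lists and 1113 and 1412 in the activin lists. At chr6:34499440-34499502, 25.5 kb downstream of the 5′ end and beyond the end of the span, they ranked 964 and 684 with palbociclib and 2748 and 1312 with activin alone. Upstream of the first of these, no library had a summit for at least 11.1 kb. The smaller number of SPDEF summits with palbociclib lay in the span (4 and 7, against 7 and 8) and in the downstream flank (4 and 4, against 9 and 4), and the groups overlapped in both stretches.

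GRHL2, a grainyhead-family factor that maintains epithelial cell junction genes, was bound near its 5′ end at chr8:102504504-102504569. The summit ranked 289 and 291 in the palbociclib lists and 563 and 214 in the activin lists, and lay 0.54 kb inside the rounded span. A second strong site lay about 24.5 to 24.9 kb upstream, and there the summit position differed between the groups. Both palbociclib libraries listed it at chr8:102479066-102479073, with ranks 4846 and 4187, and both activin libraries at chr8:102479515-102479526, with ranks 468 and 695. Each pair agreed within 12 bp, and 442 bp separated the groups, so this site appears once among the regions of each group. Whether the stretches of enrichment overlapped cannot be read from single positions.

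TFAP2C, which encodes AP-2γ, a factor that opens chromatin with the estrogen receptor in luminal cells, had a single strong site. At chr20:55204417-55204438, 0.43 kb inside the rounded span, the 4 positions fell within 22 bp. Its ranks were 509 and 427 in the palbociclib lists and 1233 and 847 in the activin lists, that is the strongest 0.808% and 0.655% with palbociclib, against 2.39% and 1.56% with activin alone. The next shared region, 2.30 kb upstream of the 5′ end, ranked 46325 and 20674 with palbociclib and 42291 and 46579 with activin alone. The additional TFAP2C summits of the palbociclib libraries lay in the downstream flank, which held 11 and 9 summits with palbociclib, against 4 and 4 with activin alone, and in the span, with 2 and 4, against 1 and 1. At this locus 10 of 15 and 9 of 16 palbociclib summits ranked below the middle of their list, as did 4 of 7 and 5 of 7 activin summits. Among the 10000 strongest summits of each list the TFAP2C counts had a log2 ratio of 0, and at equal list length one of 0.58.

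**Figure D3:**
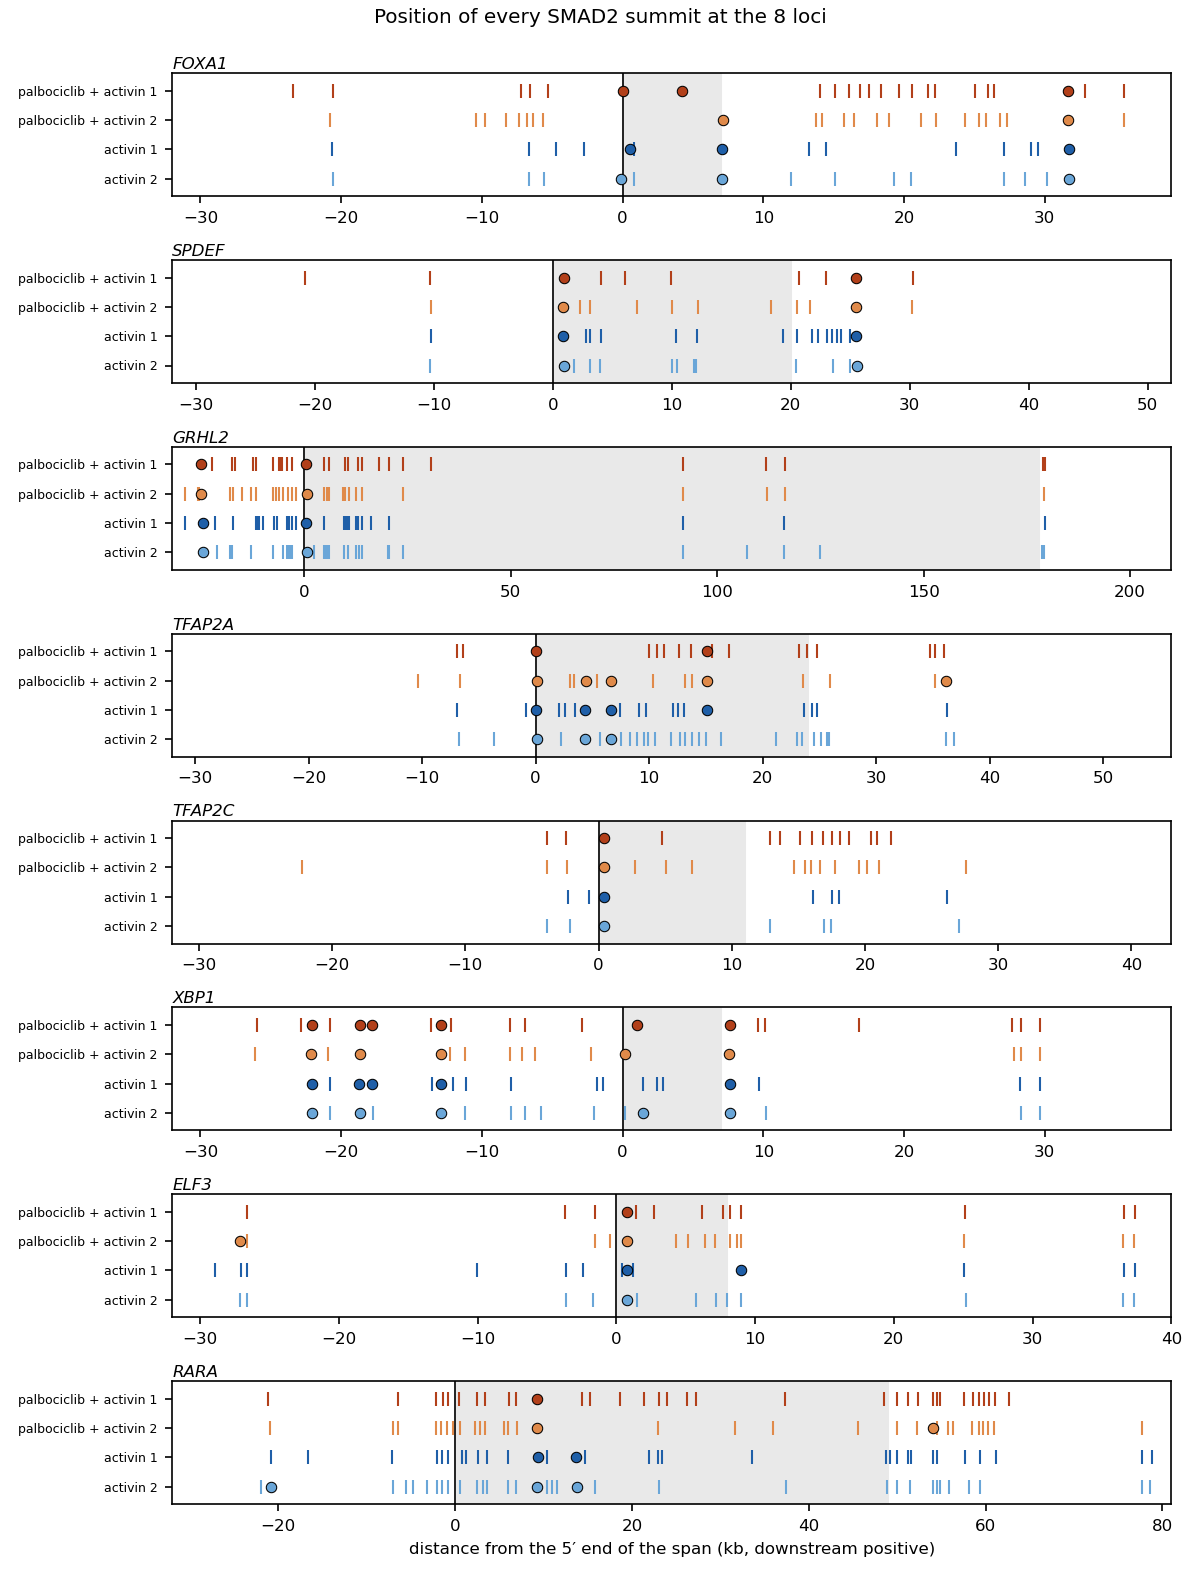
Position of every summit at the 8 loci, as distance from the 5′ end of the gene in kb along its strand (horizontal axis), with palbociclib libraries above activin libraries and filled circles for the strongest 10% of each list. The strong summits of ELF3, GRHL2, SPDEF, TFAP2A and TFAP2C line up near 0 in all 4 rows, and the additional palbociclib summits of FOXA1 and TFAP2C lie mostly downstream.

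TFAP2A, which encodes AP-2α, was also bound near its 5′ end: the region chr6:10419874-10419931 lay 0.10 kb inside the rounded span. It ranked 2721 and 1133 in the palbociclib lists and 2535 and 3443 in the activin lists. A second shared region at chr6:10404864-10404969, 15.1 kb inside, ranked 4546 and 5810 with palbociclib and 5135 and 6666 with activin alone. The libraries differed in the first 10 kb of the gene. Palbociclib library 1 listed no summit over 9.94 kb, between 10409983 and 10419926, while palbociclib library 2 and both activin libraries had strong summits there. At 4.42 kb in palbociclib library 2 and 4.35 and 4.34 kb in the activin libraries these ranked 3747, against 4080 and 5300, and at 6.64 kb, against 6.62 and 6.62 kb, they ranked 2959, against 3406 and 3681. The activin libraries shared a further region at chr6:10412493-10412525, 7.49 kb inside the gene, with ranks 6526 and 5435. The nearest palbociclib summit lay 834 bp away. RefSeq lists a second TFAP2A promoter 7.27 kb downstream of the first in GRCh38.p14. The span of the gene held 11 and 11 summits with palbociclib, against 14 and 21 with activin alone.

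XBP1, a basic leucine zipper factor of the unfolded protein response that is highly expressed in luminal cells, carried its highest-ranked sites away from the 5′ end. The region chr22:29219066-29219106, 22.1 kb upstream, ranked 929 and 935 in the palbociclib lists and 284 and 496 in the activin lists. The region chr22:29189364-29189409 lay 7.61 kb downstream of the 5′ end, past the end of the span, and ranked 770 and 468 with palbociclib and 916 and 1111 with activin alone. Shared sites at 12.9 and 18.7 kb upstream were also in the strongest 10% of all 4 lists, the second with ranks 3383 and 3615 with palbociclib and 2054 and 2582 with activin alone. XBP1 had 6 and 5 summits of the strongest 10% with palbociclib, and 5 and 5 with activin alone, out of 16 to 20. Within 2 kb of the 5′ end the best summit ranked 4683 and 4267 with palbociclib and 8629 and 4852 with activin alone. It was in the strongest 10% of every list but that of activin library 1 (16.7%). It lay at 29195999 and 29196798 in the palbociclib libraries and at 29195519 and 29195517 in the activin libraries. Activin library 2 also had a summit at 29196823 (rank 7445), 1 region with that of palbociclib library 2, so the positions did not separate the groups.

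RARA, the retinoic acid receptor alpha, an estrogen-responsive gene in breast cancer cells, had its best shared region inside the gene at chr17:38474262-38474311, 9.29 kb from the 5′ end. It ranked 1146 and 1042 in the palbociclib lists and 983 and 1881 in the activin lists. The second RARA promoter of RefSeq starts 9.07 kb downstream of the first in GRCh38.p14. At the first 5′ end the best summits were weaker, ranking 10883 and 13364 with palbociclib and 12502 and 12895 with activin alone. The strongest summit of both activin libraries was at another position, chr17:38478694-38478752, 13.7 kb inside the gene, with ranks 399 and 1003. Palbociclib library 1 had a weak summit (rank 55285) 548 bp from it, and palbociclib library 2 had none over 13.7 kb, between 38474262 and 38487925.

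FOXA1, a forkhead pioneer factor that gives the estrogen receptor access to chromatin, was the locus where the strong summits agreed least between libraries. Its best shared region, chr14:38033260-38033359, lay 31.7 kb downstream of the 5′ end, in the flank, and ranked 2052 and 2889 in the palbociclib lists and 2255 and 2695 in the activin lists. Near the 5′ end palbociclib library 1 had a summit at 38064965 (rank 3369), while palbociclib library 2 had none over 12.8 kb, between 38057826 and 38070619. The activin libraries had 38064475 (rank 4476) and 38065110 (rank 3309). About 7.1 kb from the 5′ end, palbociclib library 2 (rank 2156) and both activin libraries (ranks 1916 and 1917) had a strong summit that palbociclib library 1 lacked. That library instead had its strongest FOXA1 summit at 38060760, 4.24 kb from the 5′ end (rank 1038), where the other 3 had none within 1 kb.

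**Figure D4:**
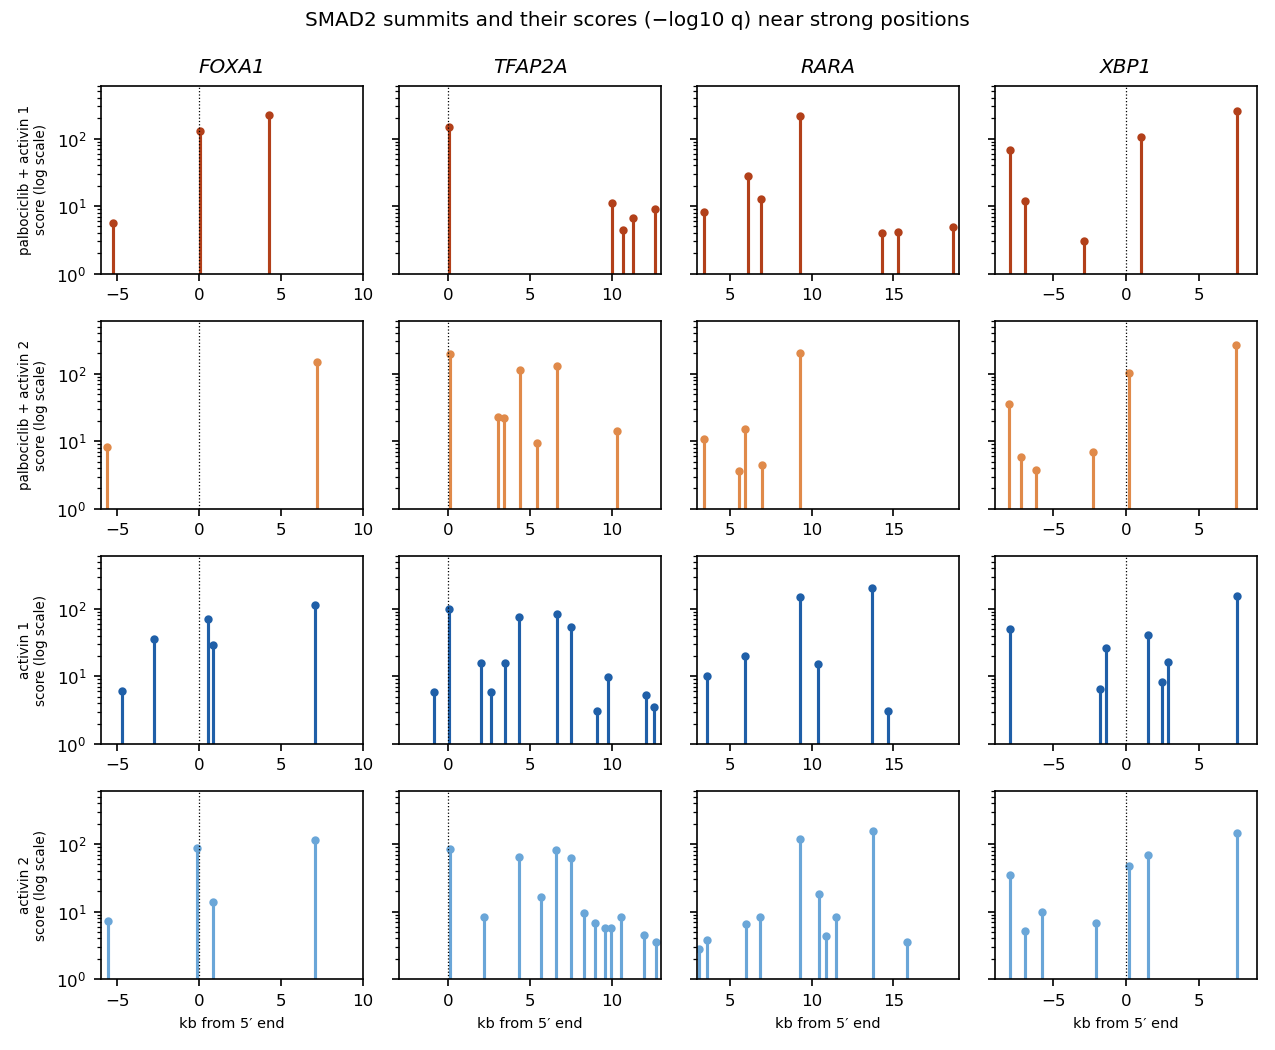
Score of each summit (vertical axis, the authors' −log10 q, on a log scale) against distance from the 5′ end in kb (horizontal axis) at FOXA1, TFAP2A, RARA and XBP1, with the palbociclib libraries drawn above the activin libraries. Scores are to be read within a library; palbociclib library 1 has no summit near 7.1 kb at FOXA1 or between 0.07 and 9 kb at TFAP2A, and the summits near 13.7 kb at RARA are in the activin rows only.

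The additional FOXA1 summits of the palbociclib group were mostly downstream of the gene. In the palbociclib libraries 15 of 23 and 13 of 24 FOXA1 summits ranked below the middle of their list, as did 6 of 14 and 7 of 14 in the activin libraries. The downstream flank held 16 and 16 summits with palbociclib, against 8 and 9 with activin alone, the upstream flank 5 and 8, against 4 and 4, and the span 2 and 0, against 2 and 1. Of the palbociclib summits at FOXA1, 10 of 23 and 9 of 24 lay over 1 kb from any activin summit. Of the whole palbociclib lists 20.06% and 19.19% did. Among the activin summits at FOXA1, 3 of 14 and 3 of 14 lay as far from any palbociclib summit. Of the whole activin lists 10.54% and 12.29% did. In either group 0 and 0 FOXA1 summits lay over 5 kb away. The whole-list shares over 5 kb were 10.59% and 9.42% with palbociclib, and 6.03% and 6.70% with activin alone. FOXA1 is rich in summits, so the 5-kb counts are not read as a trait of the locus. At equal list length the FOXA1 counts had a log2 ratio of 0.24. Among the 10000 strongest summits of each list the direction was the opposite (log2 -0.85).

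Not every strong summit at the 8 loci was matched in the other libraries. Of the 80 summits in the strongest 10% of their lists, 63 (78.8%) had a summit within 1 kb in all 3 other libraries, against 98.8% of the 23393 such summits of the genome. The 17 without one lay at FOXA1 (7), TFAP2A (6), RARA (2) and XBP1 (2), and 0 at GRHL2, SPDEF, ELF3 or TFAP2C. At FOXA1 and TFAP2A the unmatched summits stood at 5 positions, 4 of them lacking a summit in 1 palbociclib library and 1 found in palbociclib library 1 alone. This measure was chosen after the data were seen. With a library left out, fewer lists have to match: the number was 6 without palbociclib library 1, 7 without palbociclib library 2, and 11 without either activin library. The strongest 10% took in 18 and 21 summits of the loci with palbociclib, against 21 and 20 with activin alone, that is 11.3% and 13.1%, against 14.3% and 12.7%, where 10.0% of each whole list falls in it.

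Of the 334 regions at the loci, 50 (15.0%) had a summit in all 4 libraries, against 20.4% of all regions. Regions found in the palbociclib libraries alone, with a summit in both, numbered 18 (5.39%), against 5.29% of all regions. Those found in the activin libraries alone, again with a summit in both, numbered 16 (4.79%), against 2.22% of all regions. A further 181 (54.2%) had a summit in 1 library, against 50.8%. The palbociclib-specific share was thus near that of the genome, and the activin-specific share was above it; no test was run, since regions are not replicates. The activin-specific count changed with the chaining gap: at 500 bp it was 7 (3.35%, against 1.68% of all regions), and at 1000 bp it was 2 (1.75%, against 1.18%). The share present in all 4 libraries was 27.3% at the loci, against 31.4% of all regions, at 500 bp, and turned round at 1000 bp, where it was 48.2%, against 38.4%.

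**Figure D5:**
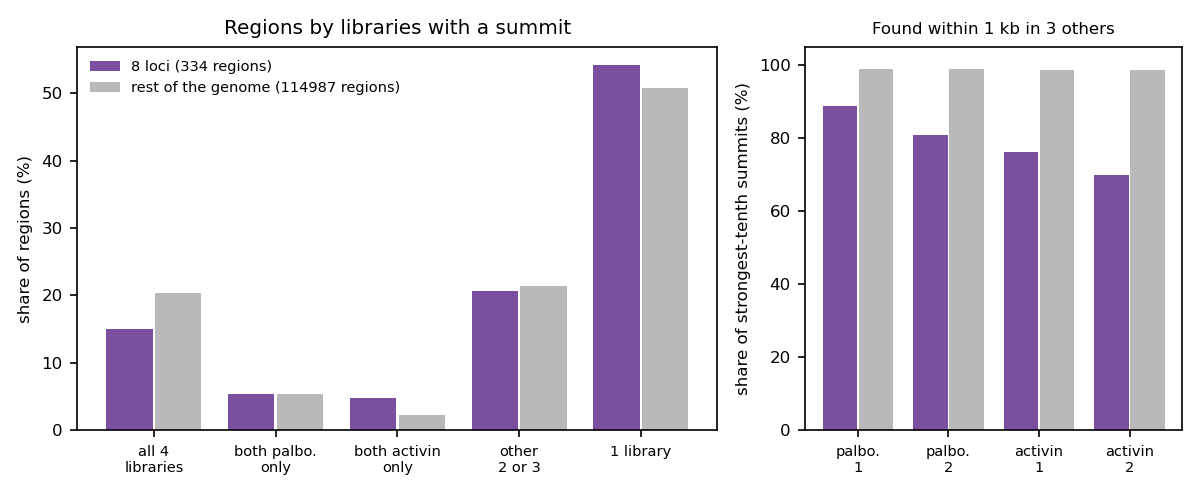
Left, percentage of regions (vertical axis) by the libraries that have a summit in them, for the 8 loci (334 regions, purple) beside the rest of the genome (114987 regions, grey); right, share (%) of the strongest 10% of summits of each library that was found within 1 kb in the 3 others, for the loci (purple) and the whole genome (grey). At this gap of 200 bp the loci have a lower share present in all 4 libraries, which is higher at a gap of 1000 bp, and a higher activin-specific share than elsewhere; 70.0% to 88.9% of the strong summits are matched.

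Most group-specific regions had a summit of the other group close by. The median distance to the nearest summit of the other group was 723 bp for the 18 palbociclib-specific regions and 498 bp for the 16 activin-specific ones. It exceeded 1 kb for 7 of the palbociclib-specific and 1 of the activin-specific regions, and exceeded 5 kb for 0 of either. These distances were not computed for the group-specific regions of the whole genome. Because the loci are rich in summits, short distances are not read as a trait of these loci. After GRHL2, the highest-ranked palbociclib-specific region was at RARA, chr17:38523454-38523579, 58.5 kb from the 5′ end (ranks 18227 and 19278). It was followed by chr14:38029360-38029397 at FOXA1 (ranks 27016 and 27112), chr6:34494733-34494815 at SPDEF (35149 and 31407) and chr14:38072220-38072365 at FOXA1 (32741 and 36474). The FOXA1 region at 38029360 lay 3863 bp, and the SPDEF region 4625 bp, from the nearest activin summit.

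Among the activin-specific regions, after GRHL2, RARA and TFAP2A came chr22:29195517-29195519 at XBP1, 1.48 kb inside the gene (ranks 8629 and 4852), and chr6:34500005-34500014 at SPDEF, 25.0 kb from the 5′ end (ranks 15272 and 10049). Both lay close to palbociclib summits, at 480 bp and 516 bp. At SPDEF the neighbour was the shared region at 34499440. At XBP1 it was a summit of palbociclib library 1 alone, and palbociclib library 2 had none within 1 kb. A list gives 1 position for a stretch of unknown width, so SMAD2 may be present where none was listed.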

How the data were processed

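Each deposited file lists the SMAD2 peak summits of 1 library in hg19, called by the authors library by library. The tools named per the submitters' processing notes are MACS2 2.0.9, Bowtie 1.1.0 and Picard; for filters and duplicates nothing is stated. The score of a summit was taken as the authors' deposited −log10 q-value: this rests on the values, whose minimum of 1.31 lies just above the 1.30 of a q of 0.05. It was used only for ranks within a list. The files hold no read numbers, so depth is unknown and list length may vary with it.

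Summits on 23 chromosomes (1 to 22 and X) were used, 1-based. Loci follow spans given to the nearest kilobase, with 30 kb on each side; strands come from RefSeq promoters for 6 genes and from general knowledge for GRHL2 and TFAP2C. Summits were chained into regions at gaps of up to 200 bp. Named regions were, per locus, of the regions shared by the 4 libraries, the 2 with the best rank in their weakest list and the nearest to the 5′ end, and over all loci 5 group-specific regions of each group, ranked likewise. Other positions were named after their values were seen. The members, lists and rules were chosen with earlier results of these data known. Windows of 100 kb on a fixed grid gave the background, also for loci of other lengths.

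Groups of 2 libraries were compared by an exact two-sided permutation test, whose smallest p is 0.333. Regions and loci are not replicates and gave no p. Alternatives were minimum scores, equal list length, the highest 10000 summits, other flanks and gaps, leaving out each library and a replicate block. Counts of summits over 1 kb from any match, windows with a mean of at least 10 summits, tallies by share of the list and stretches without a summit were added after seeing the data. Region code was tested on simulated data. Python 3.11.15, numpy 2.4.6, pandas 2.3.3, scipy 1.17.1 and matplotlib 3.10.9 were used. Sequence at the summits, exon and intron positions and other luminal factor genes were not analysed here, for want of an hg19 genome and annotation.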

Additional observations from a re-analysis of the deposited data

How the results depend on the processing

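With 2 libraries a group no comparison can pass a threshold of 0.05, and depth is unknown, so weak summits limit every count. The share of the list at the 8 loci was lower with palbociclib under all 11 alternatives (-0.105 to -0.0332 percentage points). Of these the replicate block could not change it, since the share was computed without the block. The log2 ratio of all summits (0.07) turned to -0.24 at equal list length, -0.52 for the highest 10000 summits and -0.064 with 10-kb flanks. SPDEF, TFAP2A and TFAP2C kept their direction, except that TFAP2C was 0 for the highest 10000. FOXA1 fell to 0.24 at equal list length and 0.42 with 10-kb flanks, and turned to -0.85 for the highest 10000. GRHL2 turned to 0.025 at a minimum score of 2, 0.30 at 5 and 0.043 with 50-kb flanks (-0.096 to 0.051 on leaving out a library). It fell to -0.17 at equal list length and to -1 for the highest 10000. XBP1 turned to -0.093 at a minimum score of 5, -0.13 at equal length, -0.32 for the highest 10000 and -0.19 with 10-kb flanks (-0.087 to 0.234 on leaving out a library). ELF3 turned to -0.18 at equal length, -0.22 for the highest 10000 and -0.24 with 50-kb flanks. RARA, with a log2 ratio of 0, moved to -0.36 at equal length, -0.42 for the highest 10000 and 0.061 at a minimum score of 5. Loci higher in both palbociclib libraries (2) numbered 4 at a minimum score of 5 and 0 for the highest 10000. The share of windows that did the same was not computed under these settings, so these numbers are not read as a trait of the loci. Regions in all 4 libraries (50) numbered 13 for the highest 10000, and their share turned from below to above that of the genome at a gap of 1000 bp (48.2%, against 38.4%). Palbociclib-specific regions (18) numbered 10 at equal length, 1 for the highest 10000, 8 with 10-kb flanks and 6 at a gap of 1000 bp, and activin-specific regions (16) numbered 5 for the highest 10000, 7 at a gap of 500 bp and 2 at 1000 bp. The palbociclib-specific share stayed near that of all regions: 3.56%, against 3.59%, at equal length and 5.26%, against 5.29%, at 1000 bp. At equal length the activin-specific share was 6.05%, against 3.10%. For the highest 10000 and 10-kb flanks no shares were computed. Leaving out a library gave 23 to 71 palbociclib-specific and 26 to 59 activin-specific regions, as fewer lists had to match, and 6 to 11 strong unmatched summits in place of 17. The strongest 10% took 16.9% of the summits at a minimum score of 5, 14.8% at equal length and 70.3% for the highest 10000, in place of 12.8%. It was that of the untrimmed list in every setting. Dropping weak summits therefore raises this share by construction, at the loci and elsewhere. The share over the whole trimmed lists was not computed, so these values are not to be set against 10.0%. Other causes were not tested. Deviations of the 2 replicates had a correlation of 0.02 between the groups over 18476 windows. The median window held 1.5 summits, so this value cannot decide whether replicate numbers pair the libraries. With the replicate block the log2 ratio of all summits was 0.07. Within a numbered pair of 1 palbociclib and 1 activin library, the mean was 76.5 regions in both, 83.5 in palbociclib alone and 74 in activin alone; the block turned no direction.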
